A study of Mus musculus with 3 samples.

Results

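The miR-106b/25 cluster was described here through 4 of the 899 mature miRNAs in the deposited tables, mmu-miR-106b-5p, mmu-miR-106b-3p, mmu-miR-93-5p and mmu-miR-25-3p, which were taken by name and are written without the mouse prefix below. Its 3 hairpins lie within 498 bases on the minus strand of mouse chromosome 5 (GRCm38, chr5:138165321-138165818), all in intron 13 of the 15-exon transcript Mcm7-201. Mcm7, whose gene spans chr5:138164583-138172422, encodes a subunit of the helicase that opens DNA for replication. The hairpins are cut from the same intron, the enzymes Drosha and Dicer release a duplex from each, and a strand of that duplex is loaded into Argonaute to repress mRNAs that pair with its seed. The cluster is a paralogue of the miR-17/92 cluster and, like it, is known for targets such as the cell cycle inhibitor Cdkn1a and the apoptosis inducer Bcl2l11. In the monocyte lineage, osteoclast formation begins in dividing macrophages and ends in fused cells that no longer divide.

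The hairpins are shown 5′ to 3′ with their mature arms in capitals, because the arms of a hairpin are compared below. They are RefSeq sequences of GRCm38.p6.
Mir106b, chr5:138165737-138165818, minus strand: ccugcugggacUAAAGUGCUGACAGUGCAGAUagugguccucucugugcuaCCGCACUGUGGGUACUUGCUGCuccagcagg
Mir93, chr5:138165523-138165610, minus strand: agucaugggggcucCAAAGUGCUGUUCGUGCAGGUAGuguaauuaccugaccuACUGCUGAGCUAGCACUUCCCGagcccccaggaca
Mir25, chr5:138165321-138165404, minus strand: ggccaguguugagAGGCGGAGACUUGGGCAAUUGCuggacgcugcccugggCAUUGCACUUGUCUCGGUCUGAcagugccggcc

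The mature miRNAs follow with the seed, bases 2 to 8, in capitals, since the seed decides which relatives they are compared with.
miR-106b-5p: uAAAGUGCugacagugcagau
miR-93-5p: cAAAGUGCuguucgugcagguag
miR-25-3p: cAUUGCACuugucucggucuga
miR-106b-3p: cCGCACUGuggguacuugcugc
miR-106b-5p and miR-93-5p share the seed AAAGUGC and differ at 5 of the 21 bases compared from the 5′ end. miR-25-3p carries a different seed, AUUGCAC, and miR-106b-3p, the opposite arm of the miR-106b hairpin, has a seed of its own, CGCACUG.

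The series profiled miRNAs of cultured bone marrow cells of C57BL/6 mice at 11 weeks, in 3 groups of 1 library. Bone marrow macrophages (BMM) were grown for 72 h with the macrophage growth factor M-CSF at 50 ng/mL from floating marrow cells, preosteoclasts (pOC) received M-CSF at 30 ng/mL with the osteoclast-inducing cytokine RANKL at 100 ng/mL for 24 h, and mature osteoclasts (mOC) received the same for 72 h or more. All cultures followed a 24 h preculture of the marrow and were given alendronate, a bisphosphonate, at 500 µM for 12 h. The design names exosomes and the treatment text names apoptotic bodies, and which of these was sequenced is not given in the sources used here. No table column carries the name BMM, so the library headed R was assigned to no group and enters only through the authors' fold changes. The mice behind each library and any pooling are not stated.

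The pOC library held 5430426 counts and the mOC library 7017707, so a count of 0, taken to allow up to 3 counts, corresponds to at most 0.552 and 0.427 CPM (counts per 1000000 assigned). Intervals below, of values other than 0, are exact 95% intervals that cover counting error only. With 1 library per group no difference has a replicate check, no test of the stages was possible, and fewer cells or vesicles of a type cannot be told apart from less RNA in each. The blood cell markers miR-223-3p (70.3 CPM in pOC, 250 CPM in mOC) and miR-142a-3p (284.5 and 1704 CPM) were present at both stages. The full list of 4 myeloid markers summed to 5480 CPM in pOC and 9233 CPM in mOC. Of that list only miR-223-3p and miR-142a-3p were at least 2-fold higher in mOC. Markers of other cells also differed between the libraries. The 5 erythroid markers had 842 CPM in pOC and 299 CPM in mOC, and the 3 liver and serum markers 2768 and 952 CPM. The 7 stromal markers summed to 1197 and 1161 CPM, but 4 of them were at least 2-fold lower in mOC, among them miR-143-3p (136 CPM in pOC and 31.6 CPM in mOC). Of these markers 1, a stromal one, was at 0 in pOC, and none was at 0 in mOC. Scaling without the erythroid, stromal, and liver and serum markers left the ratios of the 4 members within their counting intervals (for miR-25-3p, -0.86 with them and without). These markers are a small part of the totals, so leaving them out could move every log2 ratio only slightly, by -0.0035. What part of the members' own counts came from such cells or from serum was not tested.

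The products of the cluster did not shift together between pOC and mOC. miR-25-3p was lower in mOC, miR-106b-5p was higher, and miR-93-5p and miR-106b-3p lay close to equal. No member passed a 2-fold difference in either direction, against 21.1% of the 560 miRNAs with at least 10 counts over both libraries. Among the 171 miRNAs with at least 1000 counts over both, a group all 4 members belong to, that share was 14.6%.

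miR-25-3p, which shares its seed with miR-92a-3p, had 88307 counts in pOC and 63018 in mOC. These are 16262 CPM (interval 16154 to 16369) and 8980 CPM (8910 to 9050), so it was 1.81-fold less abundant in mOC (1.79 to 1.83). It was the most abundant member in pOC, ranking 16 among all miRNAs, and ranked 26 in mOC. Its log2 ratio of -0.86 stood at percentile 5.26 of the 171 abundant miRNAs.

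miR-93-5p had 70322 counts in pOC and 98201 in mOC. Its level was 12950 CPM (12854 to 13046) in pOC and 13993 CPM (13906 to 14081) in mOC, a log2 ratio of 0.11, and it ranked 21 in both libraries. It was the most abundant member in mOC, where miR-25-3p stood lower. Its log2 ratio was negative (-0.046) with upper quartile scaling.

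miR-106b-5p, the arm with the seed of the miR-17 family, had 2943 counts in pOC and 6070 in mOC. It was the scarcest member at both stages, at 542 CPM (523 to 562) in pOC and 865 CPM (843 to 887) in mOC. The 1.60-fold higher level in mOC (1.53 to 1.67) corresponds to a log2 ratio of 0.67, percentile 80.7 of the abundant miRNAs.

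miR-106b-3p, the opposite arm of the same hairpin, had 7522 counts in pOC and 9228 in mOC, or 1385 CPM (1354 to 1417) and 1315 CPM (1288 to 1342). Its log2 ratio was -0.075, and its sign depended on scaling, since the constants behind the authors' normalised values gave 0.20. The authors' deposited table gave a log2 fold change of 0.068 for pOC over mOC, on the same side as library totals. Scaling with the TMM factors of edgeR gave -0.068 for mOC over pOC, so the deposited fold change does not follow the constants. The abundant miRNAs as a whole had a median of 0.19, with the central 50% between -0.15 and 0.59. Relative to that median, a measure that does not depend on the scaling of the libraries, miR-106b-5p stood at 0.49, miR-93-5p at -0.077, miR-106b-3p at -0.26 and miR-25-3p at -1.05. The authors' constants moved all log2 ratios by 0.27 and upper quartile scaling by -0.16, and with the latter miR-25-3p passed the 2-fold threshold (-1.01). Of all called miRNAs 41.5% were higher in mOC with library totals, 62.0% with the authors' constants and 32.3% with upper quartile scaling. The authors' own lists for pOC over mOC, made by their own rule, held 71 miRNAs higher and 51 lower in pOC.

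**Figure D1:**
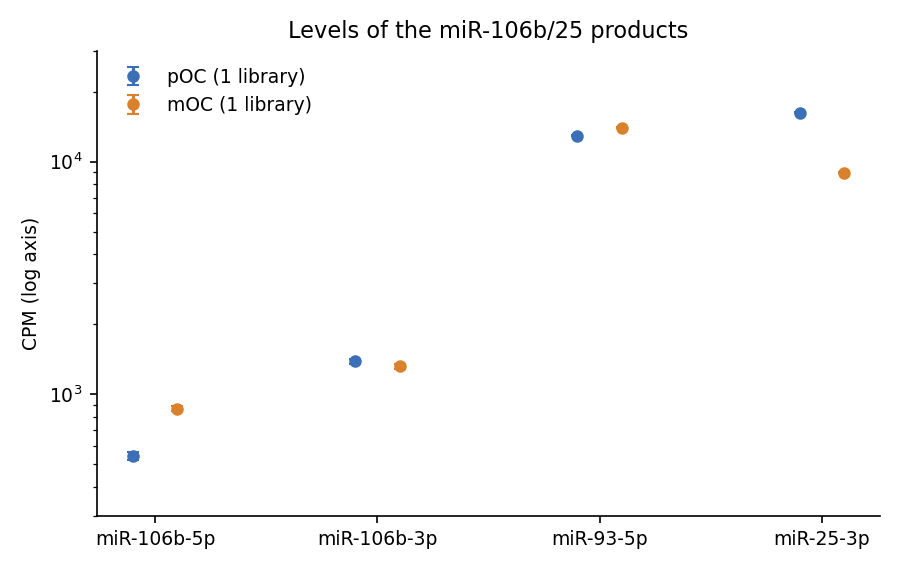
Level of each member in CPM (log axis), with pOC in blue and mOC in orange. Points are single libraries and bars are exact 95% Poisson intervals of the count, mostly smaller than the points. miR-25-3p lies lower in mOC (16262 against 8980 CPM) and miR-106b-5p higher (542 against 865 CPM).

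The summed counts of the 4 members made up 3.11% of all counts in pOC and 2.52% in mOC, a 1.24-fold lower sum in mOC (1.23 to 1.25). Within that sum, miR-25-3p held 52.2% (52.0 to 52.5%) in pOC and 35.7% (35.5 to 35.9%) in mOC. miR-93-5p took 41.6% (41.4 to 41.8%) in pOC and 55.6% (55.4 to 55.9%) in mOC. The hairpin of miR-106b supplied little of the sum, its 3p arm 4.45% in pOC and 5.23% in mOC and its 5p arm 1.74% and 3.44%. Levels of different sequences are not calibrated against each other here, so the shares serve to compare the libraries.

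**Figure D2:**
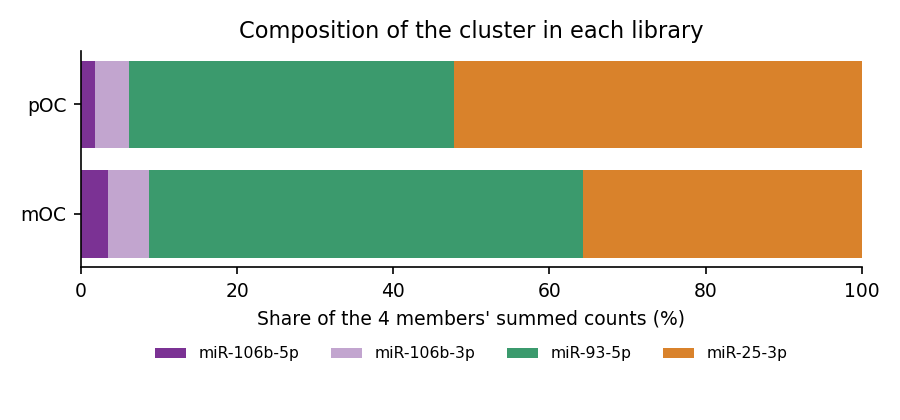
Share of each member in the summed counts of the 4 members, in percent, for the pOC and the mOC library. The largest share belongs to miR-25-3p in pOC (52.2%) and to miR-93-5p in mOC (55.6%).

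All 6 pairs of members were compared by the ratio of their mOC over pOC folds, which cancels the library scaling. The widest gap was between miR-106b-5p and miR-25-3p, whose log2 ratios differed by 1.53 (interval 1.47 to 1.60). miR-93-5p and miR-25-3p, the main products of neighbouring hairpins, differed by 0.97 (0.95 to 0.99), a 1.96-fold shift in their balance. The closest pair was miR-106b-3p and miR-93-5p, at -0.19 (-0.23 to -0.14). Every interval excluded 0, but they contain no spread between cultures.

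To see how far hairpins of other clusters diverged, hairpins at most 10000 bases apart on a strand were grouped, and the more abundant arm of each was used if it had at least 1000 counts over both libraries and came from a single locus. This grouping was chosen after the values were seen. Of 10 such clusters with at least 2 usable arms, the miR-106b/25 cluster ranked 3 by the range of log2 ratios, 0.97, against a median range of 0.56, and among the 5 with at least 3 usable arms it ranked 2. That rank depends on the single-locus rule, which drops miR-92a-3p from the miR-17/92 cluster. With arms of several loci kept, the miR-106b/25 cluster ranked 7 of 21, and the miR-17/92 cluster was wider (1.52, against 0.62 without them). Among the 7 of these with at least 3 usable arms the miR-106b/25 cluster ranked 4, and its range of 0.97 was the median. The 21 are not separate, since an arm of several loci was used in each of its clusters. miR-92a-3p, for example, entered both the miR-17/92 and the miR-106a cluster, which were both wider than the miR-106b/25 cluster. The miR-182/miR-96/miR-183 cluster had a range of 0.22 in both groupings.

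The arms of the 3 hairpins were unequal to very different degrees. From Mir93 the 5p arm supplied 99.5% of the counts of both arms in pOC and in mOC, with miR-93-3p at 333 and 521 counts. From Mir25 the 3p arm supplied 99.7% in pOC and 99.6% in mOC, with miR-25-5p at 279 and 227 counts. In contrast, both arms of Mir106b were well represented, with more counts for the 3p arm.

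The 5p share of Mir106b was 28.1% (27.3 to 29.0%) in pOC and 39.7% (38.9 to 40.5%) in mOC. The 3p counts were 2.56 times the 5p counts in pOC and 1.52 times in mOC, a pair of ratios that can be compared between the libraries and not read as the true balance of the arms. The log2 ratio of 5p over 3p was higher in mOC by 0.75 (0.67 to 0.83), whereas that of Mir93 differed by -0.16 (-0.37 to 0.038) and that of Mir25 by 0.19 (-0.070 to 0.45), both with intervals that include 0. A shift at least as large as that of Mir106b, in either direction, was found for 34.5% of the 58 hairpins with 50 or more counts for each arm in each library, and 24.1% shifted 2-fold or more. The shift of Mir106b therefore lay above the median absolute shift of 0.49 and below 2-fold. With library totals the arms of Mir106b lay on opposite sides (0.67 for 5p, -0.075 for 3p), though the 3p sign turned with the authors' constants. The minor arms of Mir93 and Mir25 lay on the same side as the major arms of their hairpins. For Mir93 this depends on the scaling, since miR-93-5p was close to equal and turned negative (-0.046) with upper quartile scaling. miR-25-5p had a log2 ratio of -0.66 (mOC over pOC) and miR-93-3p of 0.28.

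**Figure D3:**
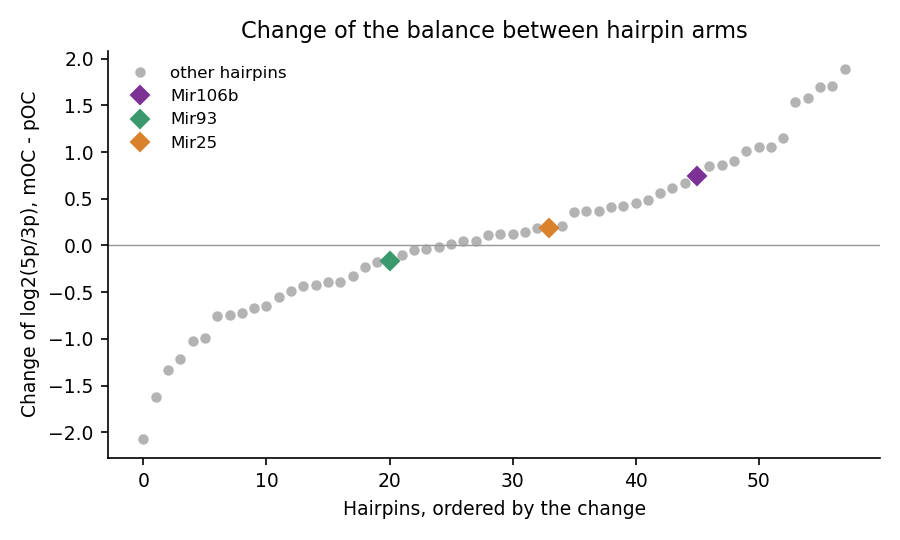
Change of the log2 ratio of the 5p arm over the 3p arm, mOC minus pOC, for 58 hairpins in order of the change. Grey circles are other hairpins and diamonds the cluster's own: Mir106b (0.75), Mir93 (-0.16) and Mir25 (0.19).

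The relatives that share a seed with a member were compared next. They are shown with the seed in capitals, because some differ from a member at few bases outside it and could share its reads. How reads that match several miRNAs were counted is not given in the sources used here.
miR-17-5p: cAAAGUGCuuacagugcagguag
miR-20a-5p: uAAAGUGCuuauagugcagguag
miR-106a-5p: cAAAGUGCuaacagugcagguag
miR-20b-5p: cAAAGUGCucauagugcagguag
miR-92a-3p: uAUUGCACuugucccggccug
miR-92b-3p: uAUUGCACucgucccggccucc
miR-32-5p: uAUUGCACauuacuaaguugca
miR-363-3p: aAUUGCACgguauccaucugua
miR-106b-5p differs from miR-17-5p, miR-20a-5p and miR-106a-5p at 3 of 21 bases each, and miR-93-5p from miR-20b-5p at 3 of 23. miR-25-3p differs from miR-92a-3p at 3 of 21.

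Of the miRNAs with the seed AAAGUGC, 6 were listed, and all 6 had a log2 ratio above 0 with library totals, from 0.11 (miR-93-5p) to 0.67 (miR-106b-5p). A log2 ratio above 0 was the more common case, seen for 64.3% of the 171 abundant miRNAs and 52.9% of the 560 with at least 10 counts. Of the 6, miR-20b-5p and miR-106a-5p are too scarce to be among the 171. miR-93-5p lay below the median of the abundant miRNAs, 0.19. None of the 6 passed 2-fold, and the lowest of them changed sign with upper quartile scaling, as given above. Between them stood miR-20a-5p (16034 CPM in pOC, 18480 CPM in mOC, log2 ratio 0.20) and miR-17-5p (11169 and 14471 CPM, 0.37), both from the miR-17/92 cluster on chromosome 14. The scarce miR-20b-5p (321 and 559 counts, 0.43) and miR-106a-5p (227 and 414, 0.50) come from the miR-106a cluster on chromosome X. Together the 6 made up 4.08% of the pOC library and 4.79% of the mOC library. miR-106b-5p and miR-93-5p supplied 33.1% (32.9 to 33.3%) of that sum in pOC and 31.0% (30.8 to 31.1%) in mOC.

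Of the 5 listed miRNAs with the seed AUUGCAC, 4 had at least 10 counts over both libraries, and they did not lie on the same side. miR-92a-3p, made from hairpins on chromosomes 14 and X, stood at 54757 CPM in pOC and 31137 CPM in mOC, 1.76-fold less (1.75 to 1.77), next to the 1.81-fold of miR-25-3p. miR-92b-3p, from chromosome 3, was 1.51-fold lower in mOC (1.35 to 1.69). miR-32-5p, from chromosome 4, was 2.15-fold higher in mOC (2.04 to 2.27), on 1992 and 5537 counts, and was the only relative with either seed past 2-fold among those with at least 10 counts. miR-363-3p had 7 counts in pOC and 0 in mOC.

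The sum over the seed AUUGCAC was 7.15% of all counts in pOC and 4.10% in mOC, 1.74-fold lower in mOC. miR-25-3p supplied 22.7% of it (22.6 to 22.9%) in pOC and 21.9% (21.8 to 22.1%) in mOC. Its share of the family therefore moved by little while its level differed 1.81-fold, and miR-92a-3p held 76.6% and 76.0%. In pOC the AUUGCAC sum exceeded the AAAGUGC sum (71515 against 40796 CPM), and in mOC it fell short of it (40991 against 47948 CPM). This order was taken within each library and does not depend on scaling. Different sequences are not calibrated against each other, however, so only the change between the libraries can be read, not which sum is truly larger.

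**Figure D4:**
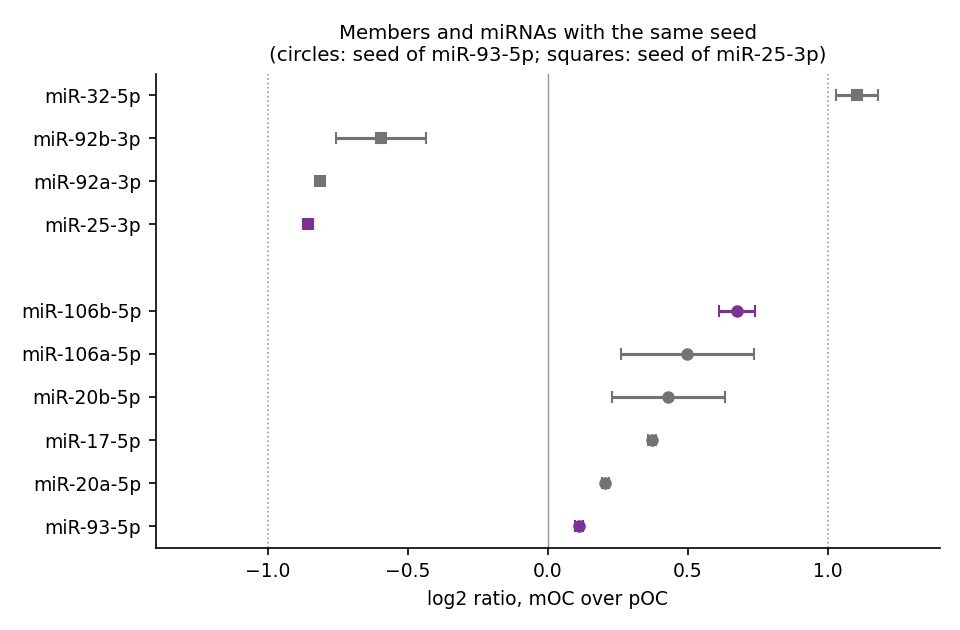
Log2 ratio of mOC over pOC for the members (purple) and the relatives with the same seed (grey), with exact 95% intervals of counting error. Circles share the seed of miR-93-5p and lie between 0.11 and 0.67 (miR-93-5p is at -0.046 with upper quartile scaling), and squares share the seed of miR-25-3p and lie between -0.86 and 1.10. Dotted lines mark 2-fold, and miR-363-3p, with 0 counts in mOC, is left out.

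The paralogous clusters were read in the same comparison. Of the 12 arms listed for the miR-17/92 cluster, 10 had 50 or more counts in a library, with a median log2 ratio of 0.21. The miR-17/92 arms ran from -0.87 for miR-92a-1-5p (67 counts in pOC, 47 in mOC) to 2.19 for miR-20a-3p (11 and 69), the only arm past 2-fold. The others were miR-18a-5p (0.70), miR-17-3p (0.26), miR-19b-3p (0.21), miR-19a-3p (0.087) and miR-18a-3p (-0.35), beside miR-17-5p, miR-20a-5p and miR-92a-3p above. Of the arms listed for the miR-106a cluster alone, miR-106a-5p and miR-20b-5p reached that minimum. miR-92a-3p and miR-19b-3p, given with the miR-17/92 cluster, are also made from the miR-106a cluster. Their counts cannot be divided between these clusters. The 4 members of the miR-106b/25 cluster had a median of 0.018.

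Against the library headed R, only the authors' fold changes are available here, and both comparisons share R. Each deposited table was scaled separately, so each pair of libraries is read from its own table and no value is subtracted from that of another. The authors' deposited table had no member 2-fold from R at either stage, while among the 171 abundant miRNAs 8.77% were 2-fold from R in pOC and 12.9% in mOC. The authors' own lists of higher and lower miRNAs held 10.7% of all miRNAs for pOC against R, 12% for mOC against R and 13.6% for pOC against mOC, and none of them named a member. Members of the same cluster again stood on different sides of R.

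In the authors' deposited table miR-25-3p was 1.49-fold higher in pOC than in R (log2 0.58) and 1.25-fold lower in mOC (-0.32). For miR-106b-5p the authors' deposited table gave the opposite arrangement, 1.32-fold lower in pOC (-0.40) and 1.18-fold higher in mOC (0.23). miR-93-5p was lower than R at both stages in the authors' deposited table, 1.31-fold in pOC (-0.39) and 1.25-fold in mOC (-0.32). miR-106b-3p was higher at both in the authors' deposited table, 1.53-fold in pOC (0.61) and 1.41-fold in mOC (0.49). For pOC over mOC, the authors' deposited table gave log2 values of 0.85 for miR-25-3p, -0.68 for miR-106b-5p, -0.12 for miR-93-5p and 0.068 for miR-106b-3p.

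With each pair of libraries read from its own table, the order differed for each of the 4 members. miR-25-3p was lowest in mOC and highest in pOC, and miR-106b-5p lowest in pOC and highest in mOC, with R between. miR-93-5p was highest in R and miR-106b-3p lowest in R. For these 2 the order of pOC and mOC is not settled, since its sign turned with the scaling of the counts, with upper quartile scaling for miR-93-5p and with the authors' constants for miR-106b-3p. Neighbours in these orders lay within 2-fold, and no replicate spread is known for any of them.

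**Figure D5:**
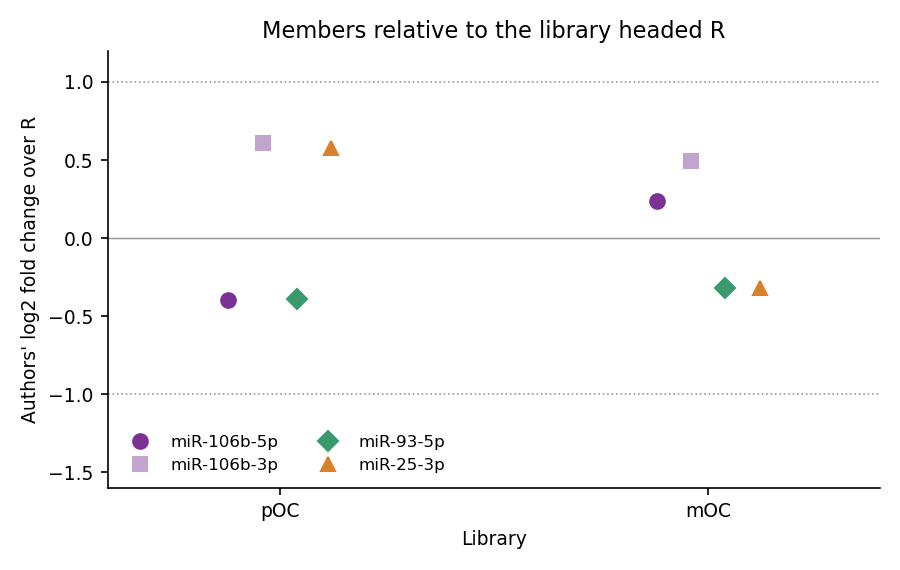
The authors' deposited log2 fold change over the library headed R for each member, in pOC and in mOC. All 8 values lie inside the dotted 2-fold lines, and the range runs from -0.40 (miR-106b-5p in pOC) to 0.61 (miR-106b-3p in pOC).

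Of the minor arms, miR-25-5p was 2.62-fold higher in pOC than in R in the authors' deposited table and is on the authors' list of higher miRNAs, on 279 counts in pOC. For mOC the authors' deposited table gave 1.60-fold. miR-93-3p was 1.54-fold lower in pOC and 1.31-fold lower in mOC, again in the authors' deposited table. Relatives of miR-25-3p stood on either side of R. The authors' deposited table put miR-92a-3p 1.28-fold lower in pOC and 2.32-fold lower in mOC, and miR-92b-3p 1.49-fold and 2.33-fold lower. For miR-32-5p the authors' deposited table gave a 1.23-fold lower level in pOC and a 1.70-fold higher level in mOC, and it put miR-363-3p above R in pOC, on only 7 counts there. miR-17-5p was above R in the authors' deposited table, 1.18-fold in pOC and 1.49-fold in mOC, miR-20a-5p stood at log2 values of -0.058 and 0.10, and miR-106a-5p was 1.64-fold and 2.25-fold higher.

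Likeness to the cluster was measured as the Euclidean distance, in the authors' deposited log2 fold changes of pOC and of mOC over R, from the median of the 4 members (0.095 and -0.043), over 167 other miRNAs with at least 1000 counts. The nearest were miR-423-5p (distance 0.038), miR-425-3p (0.073), miR-222-5p (0.11), miR-872-5p (0.12) and miR-139-5p (0.13) in the authors' deposited table. The members themselves were 0.56 (miR-106b-5p), 0.74 (miR-106b-3p), 0.56 (miR-93-5p) and 0.56 (miR-25-3p) from their own median by the authors' deposited table. At least 43.7% of the other miRNAs were closer to it than any member was. The median of the members lay near the medians of all 171 abundant miRNAs (-0.088 for pOC and 0.017 for mOC over R). Nearness to it is therefore not likeness to any single member.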

How the data were processed

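The members and lists were chosen with earlier results of these data known. The authors' deposited columns hold, going by their headers, raw read counts, normalised values (treated as a score: the count over a constant of 4803435 for pOC and 5139860 for mOC, times 1000000), log2 fold changes and fold changes as a ratio. The submitters' processing notes name FastQC, HISAT2, StringTie and GRCm38; trimming, annotation release and counting rules are not given in these sources. Columns were matched by name, POC to pOC and OC to mOC. Left unused were 32 of the 36 columns that hold sample values: 12 with the heading R, which matched no label, and 20 identical repeats.

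Counts were scaled to library totals, with a pseudocount of 1 count for log2 ratios. Levels carry exact Poisson intervals and folds and shares exact Clopper-Pearson intervals; differences between members carry the exact conditional interval of the odds ratio. They assume that each read is an independent molecule, which reads without molecular identifiers need not be. A call needed a 2-fold difference, an interval excluding 1 and a sum of 10 or more counts. The script for these ratios was tested on simulated Poisson counts without spread between cultures. That is the model the intervals assume, so it checks the calculation only. Named were the 4 members, their other arms, all miRNAs with a member's seed, arms of the paralogous clusters with 50 or more counts in a library, and the 5 nearest in likeness. Of the 899 names 793 matched RefSeq mature miRNAs (GRCm38.p6), and hairpins were placed with GENCODE M21 (GRCm38). Alternative scalings used edgeR 4.0.16 and DESeq2 1.42.0; the rest used Python 3.11.15 with scipy 1.17.1.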

Additional observations from a re-analysis of the deposited data

How the results depend on the processing

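No paired analysis was possible because each group had 1 library, and for the same reason no library could be left out. Over 8 alternatives the log2 ratio of miR-106b-5p ran from 0.52 (upper quartile) to 0.95 (authors' constants), and that of miR-25-3p from -1.01 to -0.58 with the same settings. That of miR-93-5p ran from -0.046 to 0.38, and that of miR-106b-3p from -0.23 to 0.20, so these 2 have no direction that holds for all scalings. Totals without the 5 most abundant miRNAs of each library gave -0.14 for miR-106b-3p, 0.051 for miR-93-5p and -0.92 for miR-25-3p. TMM factors, the median of ratios and pseudocounts of 0.5 and 5 stayed within the counting intervals, as did totals without the markers of other cells, an alternative chosen after seeing the data. The number of members called was 0 except with upper quartile scaling, where it was 1, miR-25-3p. These scalings shift all miRNAs by 1 constant, so shares, arm balances and differences between members are the same under each.

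Of all miRNAs, 80 were called higher with the authors' constants, against 49 with totals, and 35 lower with a minimum of 50 counts in a library, against 69, the latter because fewer miRNAs were tested. Centred on the median of miRNAs with at least 50 counts, the authors' log2 fold changes of mOC over R became 0.17 for miR-106b-5p, 0.43 for miR-106b-3p, -0.38 for miR-93-5p and -0.39 for miR-25-3p, and those of pOC stayed within counting error. Without the most abundant relative, the seed sums had log2 ratios of 0.25 (AAAGUGC, 0.23 with it) and -0.77 (AUUGCAC, -0.80 with it). Among genomic clusters the range of log2 ratios ranked 3 of 10 with single-locus arms and 7 of 21 with arms of several loci kept, also chosen after seeing the data. Counting error is small beside these shifts for the members, and the spread between cultures is unknown.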
